A study of Homo sapiens with 10 samples.

Results

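Offset WDR5 summits are called here those positions where the WDR5 peak in EMBOW knockout cells was near a wild-type WDR5 peak without lying on it. They were chosen by position alone: a summit of the knockout (KO) list on chromosomes 1 to 22 and X whose nearest wild-type (WT) summit lay more than 500 and at most 5000 bp away. Of 21053 KO summits, 4278 met this rule, or 20.3%. The WT summit nearest to each of them is called its anchor. The positions chose the members, so their number and distances are descriptions.

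Chromatin immunoprecipitation with sequencing was done on HEK293T, an established line derived from human embryonic kidney. The 3 summit lists used came from an anti-WDR5 precipitation of wild-type HEK 293T, the same precipitation of EMBOW KO HEK 293T, and an anti-FLAG bead precipitation of HEK 293T stably expressing EMBOW-FH, called EMBOW-F here. Nuclei were digested with micrococcal nuclease in all of them, and positions are on hg38. Of the 10 samples in the labels, the H3K4me3 and input libraries were not analysed here. The labels do not say how the knockout was made, whether it is a single clone, or what drives the tagged protein, and these lists hold no measure of EMBOW itself. Each list is 1 library, so the differences below have no replicate check and no p-values, and 95% intervals reflect counting error alone. The lists hold summits with no read counts, so depth is unknown.

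WDR5 is a WD40-repeat protein that holds together the core of the COMPASS-type complexes, which methylate histone H3 at lysine 4. That mark lies on nucleosomes around active and poised start sites, with a nucleosome-poor gap at the start itself and the first nucleosome of the gene just inside it. WDR5 also works outside these complexes, with MYC, with the NSL complex and at the mitotic spindle, and EMBOW is a small protein that binds it.

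The 250 bases before the start of 4 genes are shown as examples of promoters with an offset summit; of the 3077 offset summits near a start site, 104 (3.38%) lay in those 250 bases. They are the genes named or listed below that have a start in the RefSeq promoter table (GRCh38.p14) and whose KO summit, with 20 bases on either side, fell wholly inside the stretch. Genes without a start in that table, such as PXDC1, could not be shown. Each is read 5′ to 3′ on the gene's own strand and ends at the base before the start. The 41 bases in capitals are centred on the KO summit. All 4 genes lie on the minus strand, at chr22:30968775-30969024 (MORC2), chr5:107670938-107671187 (EFNA5), chr19:19033845-19034094 (SUGP2) and chr14:37595250-37595499 (FOXA1).
MORC2: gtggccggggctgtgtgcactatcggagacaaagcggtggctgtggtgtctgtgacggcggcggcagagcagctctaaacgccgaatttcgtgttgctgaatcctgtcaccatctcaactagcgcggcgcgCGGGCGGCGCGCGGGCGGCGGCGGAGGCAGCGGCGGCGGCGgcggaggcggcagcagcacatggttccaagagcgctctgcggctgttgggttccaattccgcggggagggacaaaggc
EFNA5: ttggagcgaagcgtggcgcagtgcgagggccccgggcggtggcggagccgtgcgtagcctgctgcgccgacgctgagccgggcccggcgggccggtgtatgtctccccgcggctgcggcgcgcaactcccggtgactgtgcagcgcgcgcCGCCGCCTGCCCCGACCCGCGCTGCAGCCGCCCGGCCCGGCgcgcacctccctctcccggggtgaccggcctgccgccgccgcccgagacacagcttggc
SUGP2: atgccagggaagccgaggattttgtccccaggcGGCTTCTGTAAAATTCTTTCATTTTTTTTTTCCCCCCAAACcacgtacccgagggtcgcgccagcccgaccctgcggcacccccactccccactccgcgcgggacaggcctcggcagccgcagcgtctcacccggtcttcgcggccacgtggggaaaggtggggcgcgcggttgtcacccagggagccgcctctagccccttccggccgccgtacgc
FOXA1: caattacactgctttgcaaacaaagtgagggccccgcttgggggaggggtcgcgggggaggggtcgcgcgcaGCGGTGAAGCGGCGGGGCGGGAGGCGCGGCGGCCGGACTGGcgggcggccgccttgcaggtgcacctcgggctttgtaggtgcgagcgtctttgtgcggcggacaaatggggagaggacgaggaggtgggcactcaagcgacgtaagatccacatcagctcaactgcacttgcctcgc
The KO summits lay 99 bases before the start in MORC2, 80 in EFNA5, 197 in SUGP2 and 158 in FOXA1. Seen from the same starts, the WT anchors lay 624 bp upstream in MORC2, 1415 bp upstream in EFNA5, 490 bp downstream in SUGP2 and 615 bp downstream in FOXA1, all outside the printed stretch. The CpG dinucleotide, which clusters at promoters of widely used and of developmental genes, occurred 31 times in the MORC2 stretch, 41 times in EFNA5, 26 times in SUGP2 and 26 times in FOXA1. The capitals of SUGP2 hold a run of T, whereas those of the other 3 are rich in G and C.

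Most offset summits stood beside a WT summit that the KO list already matched. For 2981 of the 4278, or 69.7% (95% interval 68.3 to 71.1%), another KO summit lay within 500 bp of the same anchor, and these are called additional. The remaining 1297 (30.3%, 28.9 to 31.7%) had an anchor without a close KO summit and are called unpaired. The 4278 summits had 3595 distinct anchors, of which 2528 (70.3%) had a KO summit within 500 bp. Over the whole WT list, 12593 of 17655 summits had one, so anchors were matched about as often as WT summits at large. Of the 3595 anchors, 3011 had 1 offset KO summit, 496 had 2, 77 had 3 and 11 had 4. Summits that share an anchor are not independent of each other. In the reverse direction, 3097 of 17655 WT summits, or 17.5%, lay as far from the nearest KO summit, and 63.0% of them (61.3 to 64.7%) were additional. The KO share of additional summits was higher by 6.65 percentage points (4.47 to 8.84). Over the whole KO list, 12550 of 21053 summits had a WT summit within 500 bp, a smaller share than for the WT list. The 2 directions therefore start from unequal shares. With the KO list shortened to the length of the WT list, this order turned round, at 63.0% in KO against 67.3% in WT, and the KO list then had 193 fewer offset summits than the WT list.

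The offsets were short. The median distance was 1033.5 bp, with quartiles of 692.0 and 1723.8 bp. Within 1000 bp of their anchor lay 2073 of the 4278, or 48.5%, and 868 lay more than 2000 bp away. Additional summits lay further off, at a median of 1120 bp (1082 to 1155), than unpaired ones at 805 bp (782 to 832). WT summits offset from KO had a median of 874 bp (846 to 894). With the KO list shortened to the length of the WT list, the medians were closer, at 944.0 bp in KO and 899 bp in WT. Neighbouring summits within the KO list that were as far apart as the rule asks had a median spacing of 1111 bp (1094 to 1128), close to that of additional summits. The 2 sets overlap, so this closeness is partly built in. An additional summit and the KO summit close to its anchor, 1115 bp apart at the median, can be such neighbours. At the lower bound the values ran on without a step: 218 KO summits lay 470 to 500 bp from a WT summit and 175 lay beyond 500 and up to 530 bp away, with median −log10 q of 6.08 and 6.32. At the upper bound, 41 summits lay more than 4700 and at most 5000 bp away, and 48 lay beyond that and up to 5300 bp, with medians of 3.09 and 3.36. By single summits, those beside NUFIP1 and CSNK1G2 stood at 500 bp with scores of 7.51 and 5.54, and those beside UNC93B1 and ATP5MF-PTCD1 were 1 bp further off with 2.26 and 3.36. At the far end, MSL2 stood at 5000 bp with 1.96 and LMNB2 at 5015 bp with 2.69.

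**Figure D1:**
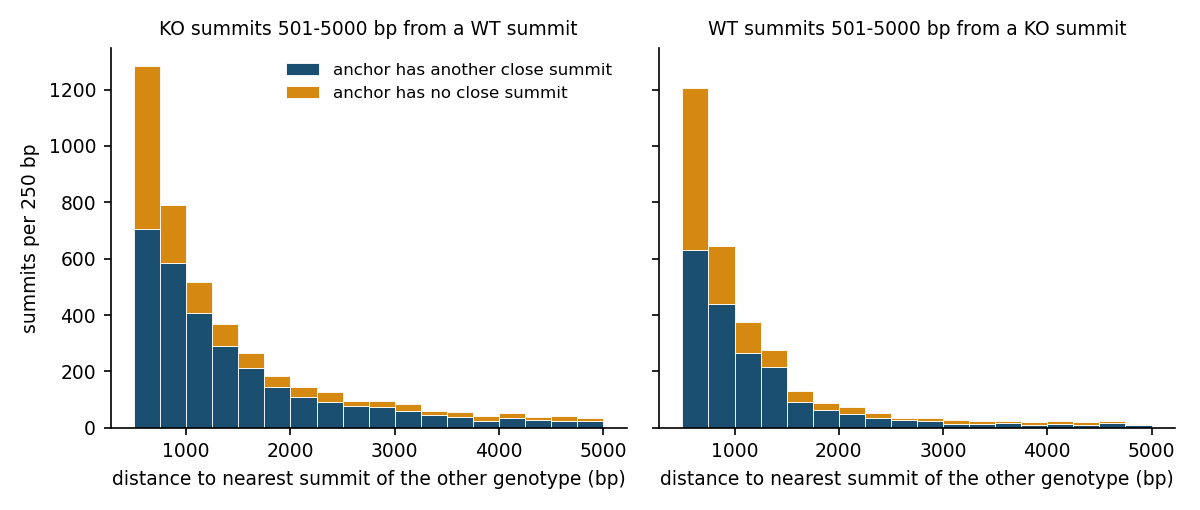
Number of offset summits (vertical axis, summits per 250 bp) by distance to the nearest summit of the other genotype (horizontal axis, bp), for KO summits on the left and WT summits on the right. Blue bars have an anchor with another close summit and orange bars do not. Numbers fall with distance on both sides. The KO list, which is longer (21053 summits against 17655), has more summits beyond 2000 bp (868 against 379).

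Offset summits were weaker than KO summits that coincided with a WT summit. The score is the −log10 q value of the authors' peak caller, and medians and ranks were taken within a list. Where KO and WT scores stand side by side, they come from separately called lists and their difference is not a measure of change. The median was 4.04 (4.02 to 4.07) for the 4278 offset summits, 9.75 (9.67 to 9.86) for the 12550 KO summits within 500 bp of WT and 3.58 (3.44 to 3.61) for the 4225 KO summits more than 5000 bp away. A −log10 q of at least 5 was reached by 36.1% of offset summits, against 60.7% of all KO summits. Unpaired summits scored higher, at a median of 4.93 (4.74 to 5.22), than additional ones at 3.61 (3.61 to 3.82). An additional summit had a lower score than the KO summit close to its anchor in 2551 of 2981 cases (85.6%, 84.3 to 86.8%), with medians of 3.61 and 10.7. The anchors of unpaired summits scored low within the WT list too, at a median of 4.97 (4.88 to 5.59), against 8.88 (8.56 to 9.29) for anchors of additional summits and 6.53 for all WT summits. Among WT summits with a close KO summit, the share that also had an additional offset summit was 17.9% (16.5 to 19.5%) in the fifth with the lowest scores and 24.1% (22.4 to 25.8%) in the fifth with the highest.

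Offset summits lay around gene starts, but outside the stretch where coinciding summits piled up. Of the 4278, 1751 were within 1 kb of an end of a protein-coding gene, or 40.9% (39.5 to 42.4%), against 55.8% of all KO summits, 70.4% of coinciding KO summits and 27.8% of KO summits more than 5000 bp from WT. The difference from coinciding summits was −29.4 percentage points (−31.1 to −27.8). Offset summits were most often found 1 to 5 kb inside a gene when they missed its ends: 33.0% (31.6 to 34.4%) lay there, against 10.3% of coinciding and 6.67% of distant KO summits. A further 9.49% lay outside genes at 1 to 5 kb from an end, against 2.45% of coinciding summits. WT summits offset from KO were placed in a like way, with 48.0% at gene ends, 26.6% at 1 to 5 kb inside a gene and 7.01% at 1 to 5 kb outside. Of the anchors, 65.3% lay within 1 kb of a gene end, so part of these positions follows from the rule. A non-coding start site within 1 kb, with no protein-coding gene end there, was found for 128 of the 4278 (2.99%), against 4.16% of all KO summits and 4.73% of coinciding ones.

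The profile around start sites had a hole at its centre. Of the 3077 offset summits within 5 kb of a protein-coding start site, 9.49% lay in the first 250 bp of the gene, where 38.9% of coinciding KO summits and 33.4% of the WT anchors lay. From 250 bp before the start to 500 bp after it were 19.1% of offset summits (17.8 to 20.6%), 58.1% of their anchors (56.2 to 60.0%) and 68.0% of coinciding KO summits. On the upstream flank, from 2000 to 250 bp before the start, were 29.4% of offset summits against 15.4% of coinciding ones. On the downstream flank, from 500 to 2000 bp after it, were 27.7% against 11.9%. A summit more than 500 bp from an anchor that sits near the start must itself lie off the start, so part of this shape follows from the rule. WT summits offset from KO had a like profile, with 24.6% between −250 and 500 bp, 28.7% on the upstream flank and 32.1% on the downstream flank. Unpaired summits were nearer the start than additional ones, with 32.5% (29.3 to 35.8%) against 14.3% (12.9 to 15.8%) between −250 and 500 bp.

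**Figure D2:**
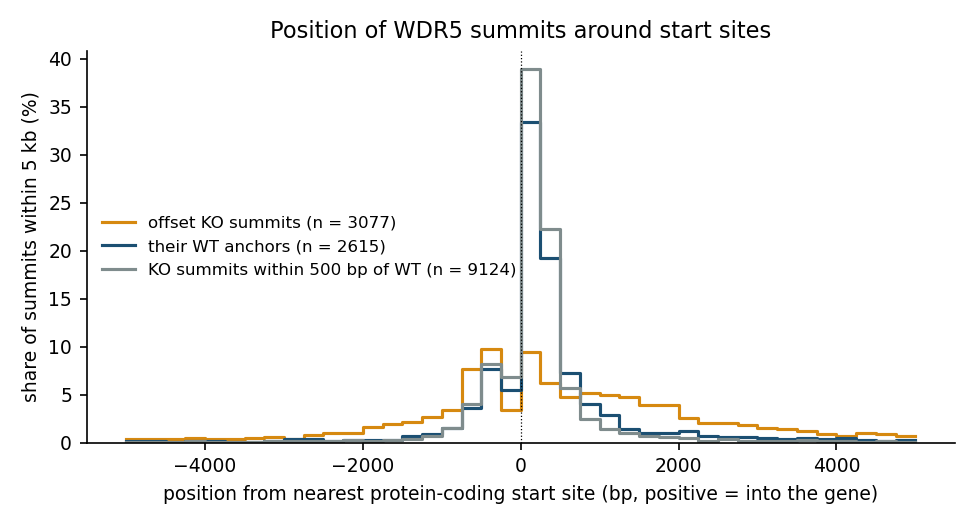
Share of summits (vertical axis, percent of those within 5 kb) by position from the nearest protein-coding start site (horizontal axis, bp, positive into the gene) in steps of 250 bp. WT anchors (blue) and coinciding KO summits (grey) peak in the first 250 bp of the gene at 33.4% and 38.9%, where offset KO summits (orange) stand at 9.49%.

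Whether an offset pointed into the gene or away from it went with its length. The direction was read at the gene end nearest to the midpoint of the 2 summits, if within 5 kb, which 3726 of the 4278 had (87.1%). Of these, 3025 were oriented by a start site and the others by the nearer end of a gene without one in the table. Along the direction from that end into its gene, the KO summit lay beyond its anchor in 2015 of 3726 pairs, or 54.1% (52.5 to 55.7%). Such pairs are called inward. The other end of the gene was not checked, so an inward KO summit can lie past it and outside the gene. For offsets of up to 1000 bp the inward share was 47.3% (45 to 49.6%), for those above 1000 and up to 2000 bp 57.1% (54.2 to 59.9%) and for longer ones 66.6% (63.0 to 70.0%). Long offsets were thus inward more often than short ones, by 19.2 points (15 to 23.3). The median offset of inward pairs was 1149 bp and that of outward pairs 914 bp. The overall share did not hold its side of 50%: it was 49.9% with a −log10 q of at least 5 in both lists and 46.5% with the gene end within 1000 bp of the midpoint. The rise with length stayed at the stricter score (45.1%, 48.3% and 67.0%) and at equal list length (46.6%, 55.3% and 65.7%), but not with the end within 1000 bp of the midpoint (45.0%, 49.4% and 45.8%), where 142 long pairs remained. Nor did it stay when the end nearest to the KO summit was used within 2500 bp (49.4%, 56.5% and 51.4%) or within 1000 bp (44.2%, 36.9% and 43.1%), although it did within 5000 bp (50.4%, 57.9% and 64.8%).

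The same pattern was found in the reverse direction. WT summits offset from KO were inward in 48.8%, 57.9% and 62.5% of pairs in the 3 length ranges. The KO minus WT differences were −1.43 points (−4.77 to 1.91), −0.824 (−5.33 to 3.72) and 4.12 (−2.43 to 10.9), so no difference between genotypes was detectable within counting error. Both sets use the same 2 lists and are not independent.

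**Figure D3:**
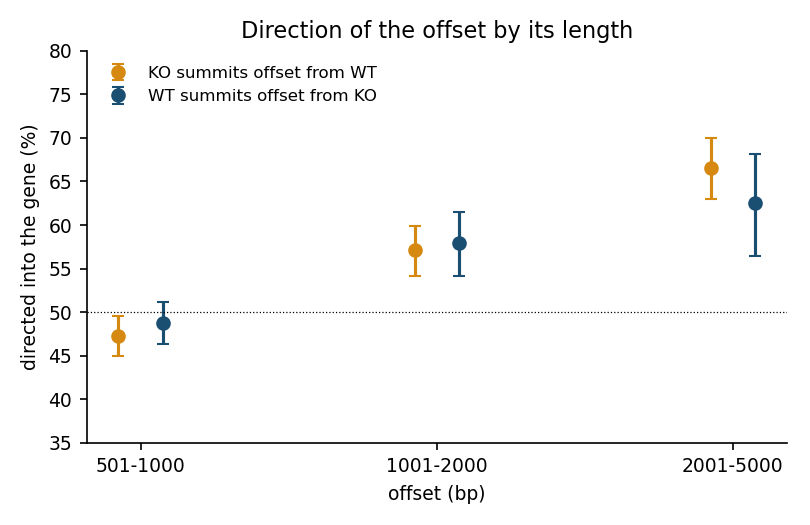
Share of offset summits directed into the gene, read at the orienting end alone (vertical axis, percent, from 35 to 80), by length of the offset (horizontal axis, bp). Points are shares with exact 95% binomial intervals for KO summits (orange) and WT summits (blue), and the dotted line is 50%; the KO shares rise from 47.3% to 66.6% and the WT shares from 48.8% to 62.5%.

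Offset pairs with a start site often had it between them. Of the 3025 pairs oriented by a start site, 925 had the KO summit upstream and the anchor downstream of it (30.6%, 28.9 to 32.3%), and 504 the other way round (16.7%, 15.3 to 18.0%). In 1071 pairs (35.4%, 33.7 to 37.1%) both summits lay downstream of the start with the KO summit further downstream, at a median offset of 1269 bp. Both summits lay upstream in 211 pairs with the KO summit further out and in 79 with it nearer the start. The KO summit was further from the start than its anchor in 75% of pairs (73.5 to 76.6%), and the WT summit in 67.7% (65.7 to 69.7%) of the reverse pairs. Anchors often sat near the start and the rule sets the offset summit more than 500 bp from them, so part of these shares follows from the rule.

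Among unpaired summits, 943 formed mutual pairs, in which each summit was the nearest of the other list. In these pairs neither list had a summit closer to the other. A gene end lay within 1 kb of both summits in 383 of the 943 (40.6%). Their median offset was 682 bp (660 to 706). The KO summit was the further inward in 372 of 752 pairs with a gene end (49.5%, 45.8 to 53.1%). It was nearer the start than the WT summit in 278 of 574 (48.4%, 44.3 to 52.6%). A gene end lay within 1 kb of the KO summit in 481 of the 943 and of the WT summit in 478. In neither measure was a direction of displacement detectable. The other 354 unpaired summits had an anchor whose nearest KO summit was a different one, and lay further off, at a median of 1811.5 bp.

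The 10 highest-scored unpaired summits at gene ends had offsets of 502 to 1335 bp, and 9 of them were mutual pairs. By the rule, 4 were inward and 6 outward. The highest lay on chromosome 1 at 244864350, with a −log10 q of 57.7, at rank 234 of the KO list. It stood 132 bp outside LOC124904588 and 193 bp inside an end of HNRNPU, which encodes a nuclear matrix RNA-binding protein. Its anchor at 244863636 scored 33.0 in the WT list and lay 714 bp away. An end of opposite orientation lay within 5 kb, so the offset is inward for LOC124904588 and its direction depends on the gene chosen.

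At MORC2, a chromatin ATPase gene, the KO summit at 30968873 on chromosome 22 scored 53.5, and the anchor at 30969398 scored 34.3. The pair is read from TUG1, which starts on the other side: the KO summit lay 392 bp before the TUG1 start and the WT summit 133 bp inside it. At EFNA5, which encodes an ephrin ligand of Eph receptors, the KO summit lay 80 bp before the start and scored 37.6. Its WT anchor lay 1415 bp before the start and scored 17.4, and another KO summit, scored 15.4, lay 1151 bp from that anchor. EFNA5 therefore had KO summits on either side of its anchor.

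At NUP210, a nuclear pore gene, the KO summit lay 145 bp and the WT summit 674 bp inside the start. HNRNPM, a splicing regulator gene, showed the same order at 163 and 671 bp, and so did ZBTB2, a zinc finger gene, at 94 and 596 bp. In these 3 genes the KO summit fell in the first 250 bp of the gene and the WT summit beyond 500 bp. The scores in the KO and WT lists were 36.8 and 11.0 at NUP210, 36.2 and 14.7 at HNRNPM, and 34.2 and 17.2 at ZBTB2.

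The reverse order was found at RPL28, a ribosomal protein gene of the large subunit. Its WT summit lay 162 bp inside the start with a score of 18.8, and its KO summit 707 bp inside with 32.5. USP24, a deubiquitinase gene, had the WT summit 148 bp inside its gene end and the KO summit 408 bp outside it. PXDC1 had them 833 bp inside and 163 bp outside its end. Neither gene has a start site in the table, so these are distances from the nearest end of the gene. At AGO3, an Argonaute gene of small RNA silencing, the WT summit lay 115 bp before the start and the KO summit 422 bp inside, with scores of 20.3 and 30.7. SYDE2, the fifth inward gene by score, had them 446 bp before and 335 bp inside. Across these genes the KO summit was the nearer to the gene end in some and the further in others.

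**Figure D4:**
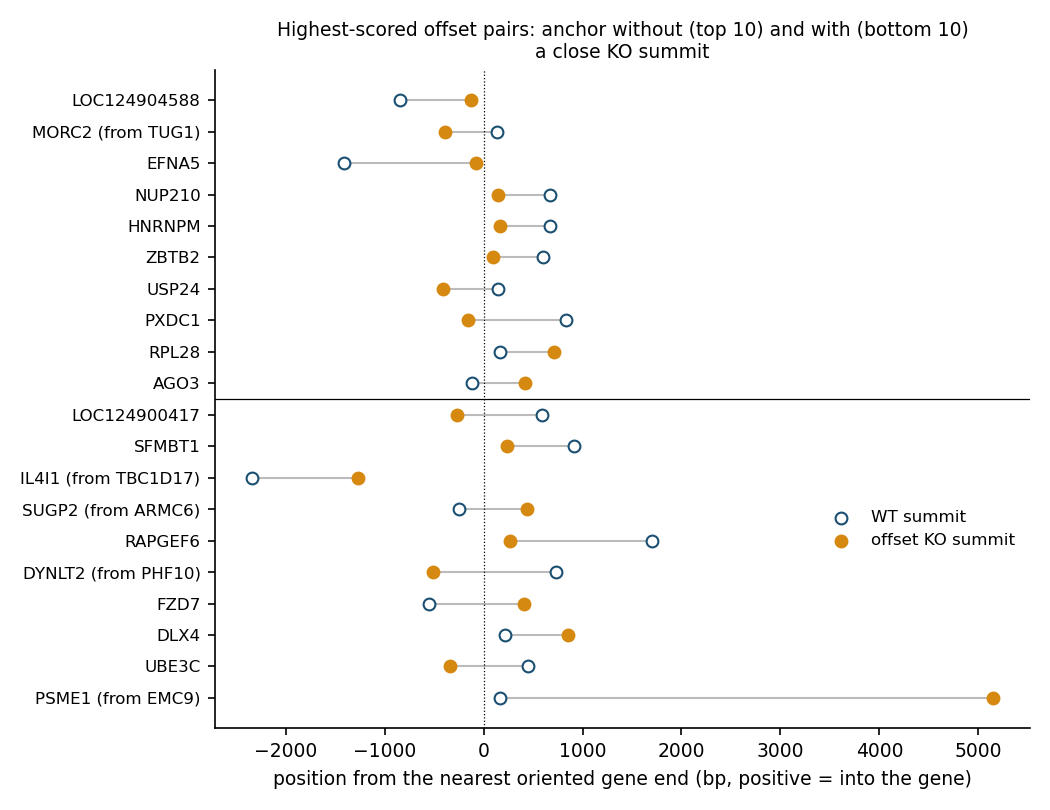
Positions of the offset KO summit (filled orange circle) and its WT anchor (open circle) from the gene end that orients each pair (horizontal axis, bp, positive into the gene), for the 10 named genes whose anchor has no close KO summit (top) and the 10 whose anchor has one (bottom). Offsets run from 502 to 4976 bp, and KO summits lie on either side of their anchors.

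The 10 highest-scored additional summits at gene ends had offsets of 642 to 4976 bp, with 5 inward and 5 outward. In 8 of these 10, which their own score chose, the offset summit stood above the KO summit close to the anchor, whereas 85.6% of all additional summits stood below it. At RAPGEF6, a guanine nucleotide exchange factor gene, the offset summit lay 269 bp inside the start and scored 21.3, and the anchor 1706 bp inside had a close KO summit of only 2.60. SFMBT1, which encodes an MBT-domain protein linked to Polycomb silencing, had its offset summit 241 bp inside its gene end with 25, and the anchor at 912 bp with a close KO summit of 12.3. FZD7, a Wnt receptor gene, had its offset summit 412 bp inside its gene end and the anchor 556 bp outside, with KO scores of 19.4 and 9.71. In these genes the stronger KO summit was the one without a WT summit on it.

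DLX4, a homeobox gene, had the offset summit 855 bp and the anchor 213 bp inside its gene end, at KO scores of 18.9 and 12.8. UBE3C, a ubiquitin ligase gene, had the offset summit 342 bp before its start and the anchor 452 bp inside, at 18.8 and 15.1. SUGP2, whose upstream stretch is printed above, had an offset summit of 22.1 and a close KO summit of 3.88 on its anchor 687 bp away. The largest offset of the group, 4976 bp, was at PSME1, a proteasome activator gene, where the pair was oriented from the neighbouring gene EMC9. LOC124900417 had an offset summit of 27.7 and a close KO summit of 1.53. The remaining cases were of the common kind: at IL4I1 the offset summit scored 23.3 beside a close KO summit of 335, and at DYNLT2 19.8 beside 24.2.

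Gene lists were read as the number of genes with an offset KO summit within 1 kb of either end. Over all 19974 protein-coding genes, 1944 had one, or 9.73%. Of the 10707 genes with any KO summit there, this was 18.2%. The genes and lists were picked with earlier results of these data in view, so the shares are descriptions and single out no list. HOX and ribosomal genes lie close together or are short, and 1 summit can count for several of them. Directions in the lists are read from the gene end nearest to the midpoint, which can belong to a neighbouring gene. At HNRNPU, for example, the offset counts as inward because it is read from LOC124904588.

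Among cytosolic ribosomal protein genes, whose products make up the translating ribosome, 25 of 79 had an offset summit (31.6%, 21.6 to 43.1%). In 18 of the 25 the summit was additional and in 7 it was unpaired. Ribosomal genes are short, with a median length of 5011 bp against 24170.5 bp over all genes, and the part of length in the count was not tested. Counted at start sites alone, 9 of 63 had one (14.3%, 6.75 to 25.4%), against 10.2% of all genes with a start site. The anchors included some of the strongest WT summits: that of RPS14 scored 1142.8 at rank 11, with an offset KO summit of 4.23 at 1106 bp. RPL7A had an anchor of 906.0 and an offset summit of 2.63 at 2829 bp, and RPL41 an anchor of 569.0 and an offset summit of 6.07 at 768 bp. Besides RPL28, the strongest offset summit of the list was that of RPL23A (17.1, unpaired, 1523 bp, outward).

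Developmental regulators, transcription factor genes that pattern the embryo, had an offset summit in 14 of 56 (25%, 14.4 to 38.4%). Of these, 9 were unpaired and 10 were outward. HES6, a helix-loop-helix factor gene, had the highest score at 25.2, with its anchor of 32.9 at 941 bp. SOX4 had 19.9 at 982 bp and ZIC2 16.1 at 544 bp. These summits of HES6, SOX4 and ZIC2 were unpaired and outward. SOX2, a pluripotency factor gene, had an unpaired summit of 9.52 at 506 bp, just past the lower bound of the rule. The weakest in the list were SOX12 at 2.16 and FOXD1 at 2.67, both additional. Next came FOXA1, whose upstream stretch is printed above, at 2.84 and rank 17763 of the KO list, also additional.

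Of 39 HOX genes, which set position along the body axis, 11 had an offset summit (28.2%, 15 to 44.9%), through 8 distinct summits. A single summit served HOXC4, HOXC5 and HOXC6 (5.36, 504 bp, unpaired), and another HOXA3 and HOXA7 (7.50, 2034 bp, additional). HOXB6 had the highest score, 26.0, at rank 1133 of the KO list, while its WT anchor 842 bp away scored 1.71 at rank 17252. Of the others, HOXA5 had 5.22, HOXD8 2.70, HOXA4 2.32, HOXB13 1.89 and HOXC10 1.40.

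Genes of WDR5 and its partners had an offset summit in 6 of 28 (21.4%, 8.30 to 41.0%). HCFC1, which encodes a host cell factor found in COMPASS-type complexes, had the strongest, 18.2, lying 161 bp outside the gene and 1221 bp from its anchor of 19.2. The others scored between 2.16 at DPY30, a core subunit, and 5.23 at PAGR1, with KMT2A (4.12) and KMT2B (4.30), both MLL-type methyltransferases, and KAT8 (4.40), the acetyltransferase of the NSL complex, in between. Of 34 Polycomb genes, 7 had one (20.6%, 8.70 to 37.9%), led by EZH2, the H3K27 methyltransferase, with 20.1 at 516 bp, followed by ASXL1 (10.7). Of 45 mitosis and spindle genes, 7 had one (15.6%, 6.49 to 29.5%). The strongest of these was KIF2C, a microtubule-depolymerising kinesin gene, at 7.02, with a WT anchor of 1.78. BIRC5 had 6.25, SMC3 6.07 and PLK1, a mitotic kinase gene, 4.87.

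Splicing factor genes of the hnRNP and SR families had an offset summit in 9 of 33 (27.3%, 13.3 to 45.5%), of which 7 were outward. HNRNPU and HNRNPM led with 57.7 and 36.2, and HNRNPC followed with 9.75. At the other end stood SRSF4 with 2.59 and SRSF5 with 3.35. Of 13 Argonaute and microRNA genes, AGO1 and AGO3 had one, and it was the same summit. The intervals of all 8 lists are wide, and those of the COMPASS, mitosis, Polycomb and Argonaute lists include 9.73%. Among genes with any KO summit the shares were 22.2% for COMPASS, 17.9% for mitosis, 25% for Polycomb, 27.3% for splicing and 18.2% for Argonaute genes, and these 5 intervals include the 18.2% of all such genes. For developmental, HOX and ribosomal genes they were 35.9% (21.2 to 52.8%), 35.5% (19.2 to 54.6%) and 32.5% (22.2 to 44.1%).

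**Figure D5:**
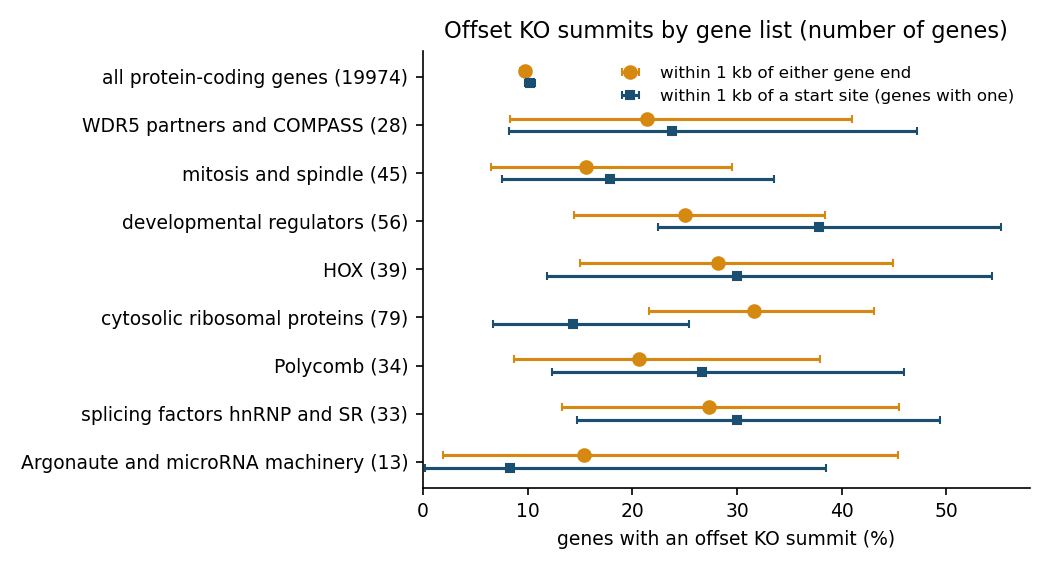
Share of genes (horizontal axis, percent) with an offset KO summit within 1 kb of either end (orange circles) or of a start site (blue squares, genes with a start site only) for all protein-coding genes and the 8 lists, with exact 95% binomial intervals. By either end the lists run from 15.4% (Argonaute genes) to 31.6% (ribosomal protein genes) beside 9.73% for all genes, and by start site the ribosomal share is 14.3%.

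The 11 anchors with 4 offset KO summits were picked after the counts were seen. By nearest gene they included EID3, SPRY2, NCOR1, KISS1R, NOP58, RNF168, EIF4E, PITX1 and SOX4, and 10 of the 11 were inside a protein-coding gene. Within 5 kb of them stood 4 to 7 KO summits and 1 to 3 WT summits, with a single WT summit at 6 of the 11. A close KO summit was present at SPRY2, a receptor tyrosine kinase signalling inhibitor gene, and at EIF4E, the cap-binding factor gene, and absent at the other 9. At PITX1, a homeobox gene, the anchor scored 19.8, and the 4 KO summits lay 894 to 4591 bp to its left, the best of them at 19.1. At SOX4 the anchor scored 22, with 1 KO summit 982 bp to its left and 3 at 2452 to 3768 bp to its right. At RNF168, a DNA damage ubiquitin ligase gene, an anchor of 2.73 had 4 KO summits at 1643 to 3646 bp, all on the same side and none above 6.17.

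Some strong offset summits lay away from gene ends. The highest of all, at 125179380 on chromosome 1 with a score of 117.0 (rank 133), was additional, 823 bp from an anchor of 431.0 and 3716251 bp from the nearest protein-coding gene end. An EMBOW-F summit lay 829 bp from it, and whether this locus lies in a repeat was not tested. At FOXC1, a forkhead factor gene, an unpaired summit of 81.6 lay 1267 bp inside the gene and 615 bp from an anchor of 60.7. SP9, NR2F1 and SLIT2 had the same form, with unpaired summits of 30.2, 31.9 and 31.5 at 1375, 1053 and 1969 bp inside. SP9 and NR2F1 encode transcription factors of the nervous system and SLIT2 an axon guidance ligand. PLAGL1, an imprinted zinc finger gene, had one of 34.8 at 56582 bp inside, and PTPRN2, a phosphatase-like protein gene, one of 39.3 at 440122 bp inside. The distances are from protein-coding gene ends, and a non-coding start site lay 242 bp from the PLAGL1 summit and 169 bp from that of NR2F1. These summits were picked after their values were seen.

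Tagged EMBOW was found at few offset summits. Of the 4278, 26 had an EMBOW-F summit within 500 bp (0.608%, 0.397 to 0.889%), against 2.32% of all KO summits, 1.16% of coinciding ones and 7.53% of KO summits more than 5000 bp from WT. Away from gene ends the share was 0.871%, against 3.60% of coinciding and 10.3% of distant KO summits, and 2.11% of WT summits offset from KO. This comparison does not adjust for how far from genes the summits lay. Outside genes and over 5 kb from an end lay 6.9% of all offset, 8.07% of coinciding and 36.6% of distant KO summits. Over all positions, the EMBOW-F share was 1.46% (0.884 to 2.28%) for unpaired summits and 0.235% (0.0945 to 0.483%) for additional ones. At gene ends the share was 0.228% (0.0623 to 0.584%), against 0.125% of coinciding, 0.255% of distant and 0.153% of all KO summits there, and no difference was detectable at these counts. The 4 gene-end summits were those of TWIST1, a mesoderm factor gene, at 1 bp, SLAIN1, a microtubule plus-end protein gene, at 318 bp, MTMR1, a lipid phosphatase gene, at 468 bp, and EZH2 at 487 bp. The strongest member with EMBOW-F, 29.6 at 46399515 on chromosome 16, lay 179076 bp from the nearest gene end. Whether this and the other members far from genes lie in repeats was not tested. The EMBOW-F list holds 93143 summits from cells that express the tagged protein, and read depth is unknown for it as for the others.

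The authors deposited a list of transcripts picked as new WDR5 targets, which was chosen on these same samples and is not independent of them. A 5′ end of that list lay within 1 kb of 377 offset KO summits (8.81%, 7.98 to 9.70%), against 10.5% of all KO summits, 32.3% of those more than 5000 bp from WT and 3.67% of coinciding ones. Among summits at gene ends the shares were 15.1%, 84.4% and 4.27% for offset, distant and coinciding ones. Offset summits thus stood between the other classes, and nearer to the coinciding summits. MORC2, HNRNPM, PXDC1 and PSME1 were among the named genes with such a 5′ end, at 99, 459, 765 and 217 bp.

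Promoter windows that held an offset summit were richer in CpG than promoter windows in general. They cover few of the 4278 summits, most of which lie outside such windows. Of 22012 promoter windows of 300 bases in the RefSeq table, 131 held an offset KO summit, with a median GC content of 69.7% (68.0 to 72.3%) and 31 CpG (27 to 34). The 964 windows with a coinciding KO summit had medians of 73.0% and 34, the 20767 without a KO summit 61.7% and 20, and all windows 62.3% and 21. Letters of 4 motifs were searched on both strands. The GC box GGGCGG, the letters that Sp factors bind, was in 78.6% of windows with an offset summit (70.6 to 85.3%), 82.0% of those with a coinciding one and 56.3% of all. CCAAT, the letters bound by NF-Y, was in 20.6% (14.0 to 28.6%), 16.0% and 34.7%. The E-box CACGTG, bound by MYC and its relatives, was in 9.92% (5.39 to 16.4%), 11.7% and 8.32%, and TATAAA in 4.58% (1.70 to 9.70%), 2.07% and 9.49%. For all 4 motifs the interval for offset windows includes the share in coinciding windows. Within the printed stretches, MORC2 holds 2 GC boxes and 1 CCAAT, EFNA5 holds 3 GC boxes, FOXA1 holds 2, and SUGP2 has 1 CACGTG.

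Offset summits were spread over all chromosomes. They made up 15.7% (11.6 to 20.6%) of KO summits on chromosome 18 and 25.3% (23 to 27.7%) on chromosome 17, followed by chromosome 19 with 24.1% and chromosomes 11 and 16 with 23.2% each. The additional share ran from 63.0% on chromosome 22 to 89.2% (74.6 to 97.0%) on chromosome 21, where 33 of 37 were additional.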

How the data were processed

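Summit lists of WDR5 in WT and KO HEK293T, of EMBOW-F, and a list of 18665 transcripts were used. The submitters' processing notes name MACS2 2.2.7.1, Bowtie2 2.4.5, deepTools 3.5.1 and hg38, without role or setting. The deposited score was read as −log10 q, because the lowest of each WDR5 list corresponds to a q barely under 0.05. The sources used here do not give the input for each list or any pooling. Other values of the authors' deposited files are positions, and read depth is unknown.

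Each KO summit on chromosomes 1 to 22 and X was joined to the nearest WT summit. Summits off these chromosomes (2 in KO) were left out. No filter for repeats or for regions of high background was applied here. Gene ends came from a RefSeq table (GRCh38.p14, 19974 protein-coding genes). Start sites, with strand, came from the RefSeq promoter table and covered 15812 of these genes, none of them on chromosome 8. Genes without one were oriented by both ends. Symbols of the gene lists matched in 327 of 327 cases. Genes were named by rule: the 10 highest-scored unpaired and the 10 highest-scored additional summits within 1 kb of a gene end, the 5 highest in each direction, members of 8 lists, and summits beside the bounds. The members, lists and rules were chosen with earlier results of these data known. The plan had allowed for strand to be missing. Intervals are exact Clopper-Pearson for shares, Newcombe for differences of shares and order statistics for medians, all at 95%, and summits that share an anchor make them too narrow. Distances and intervals were computed in Python 3.11.15 with scipy 1.17.1, numpy 2.4.6 and pandas 2.3.3, and plots drawn with matplotlib 3.10.9. The joining steps were tested on simulated data. Other score thresholds, list lengths, bounds, windows and units of counting were tried. A few genes taken by these rules are left out of the text.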

Additional observations from a re-analysis of the deposited data

How the results depend on the processing

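Of the alternative values, 13 stayed within the interval or 1.5 times of the reported value, 25 moved and 2 changed side. With both lists first cut to a −log10 q of at least 5, the rule gave 1813 offset KO summits. These include summits outside the 4278, of which 1544 reached that score, because some nearer WT summits were cut. Their median offset was 938 bp, with 59.9% additional, 54.6% at gene ends and 0.386% with EMBOW-F. The inward share was 49.9%, which is the other side of 50%. The inward share was also under 50%, at 46.5%, with the gene end within 1000 bp of the midpoint. With lists of equal length the median offset was 944.0 bp, the inward share 52.3%, the additional share 63.0% and the gene-end share 45.7%. With an upper bound of 2000 bp, these were 872.0 bp, 51.2% inward and 47.4% at gene ends. With a lower bound of 1000 bp, 2205 summits had a median of 1692 bp, 60.6% inward, 76.8% additional and 23.4% at gene ends. Counting each WT summit once gave 916 bp, 52.4% inward and 44.2% at gene ends. The inward share was 51.2% from the gene end nearest to the WT summit and 51.8% without pairs that had an end of opposite orientation. A partner within 250 bp gave 59.4% additional, and gene-end windows of 500 and 2000 bp gave 23.9% and 64.1%. Where fewer summits or other windows enter by construction, the values differ for that reason, and otherwise the cause was not tested. Added after seeing the data, start sites only (54.2%), the end nearest to the KO summit (55.4%) and a 2500 bp window (52.6%) kept the inward share above 50%. No paired analysis was possible because each group has 1 library, and for the same reason no replicate could be left out. Depth is unknown, so its part in these values was not tested.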
